A study of Mus musculus with 4 samples.

Results

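Retinol dehydrogenases, a related steroid dehydrogenase and the genes that bind, store and oxidise retinoids were described in mouse liver with and without a synonymous mutation of Foxo1. The set held 9 genes among the 37315 gene rows of the count files: Hsd17b6, Rdh16, Rdh7, Rdh10, Rdh11, Dhrs3, Rbp4, Lrat and Aldh1a1. They were chosen by function around Hsd17b6 and Rdh16, and the mutant to wild type values of these libraries were known when the set was drawn up. Values of that comparison are therefore given for the 9 genes as a description, and no p-value is printed for them. Where the text says that a member passed or missed the threshold, or gives its confidence interval, that is a description too. All 9 were found in the files, and all 9 passed the filter on low counts, with at least 1333 reads in every library.

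The study sequenced polyA RNA of liver from 23-week-old C57BL/6 mice. One group was wild type and the other carried a synonymous Foxo1 mutation, a change of the coding sequence that leaves the amino acid as it was. Each group had 2 libraries, and whether they came from separate animals is not given in the sources used here, so p-values measure only the spread between these libraries, which may be technical. The base exchanged, whether 1 or both alleles carried it, sex and feeding state are likewise not given there. Total counts ran from 73551737 to 95908652 per library. Foxo1 itself (mm10 chromosome 3) was at 44.0 and 54.8 normalised CPM (reads scaled to the size of the library) in the wild type libraries and at 33.6 and 53.4 CPM in the mutant libraries, so the groups overlapped, and its exons overlap those of Gm20402 on the opposite strand. Of 9 hepatocyte markers in the files none was at 0, and their summed level was 105282 and 118052 CPM in wild type and at 103664 and 100477 CPM in mutant liver.

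The liver is the main store of vitamin A. Retinol reaches it as retinyl ester, is held as ester by stellate cells through the acyltransferase Lrat, and leaves it bound to Rbp4, the plasma carrier made by hepatocytes. Retinol is reversibly oxidised to retinal by short-chain dehydrogenases, some of which also act on androgens. Retinal is oxidised irreversibly to retinoic acid by Aldh1a enzymes, and retinoic acid is cleared by Cyp26 hydroxylases.

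Hsd17b6, Rdh16 and Rdh7 belong to a tandem cluster of short-chain dehydrogenase genes on mouse chromosome 10. Their close relation is shown by the first 120 coding bases of 4 cluster genes, taken from GENCODE transcripts of the GRCm38 build (mm10), with bases identical in all 4 in capitals.
Hsd17b6: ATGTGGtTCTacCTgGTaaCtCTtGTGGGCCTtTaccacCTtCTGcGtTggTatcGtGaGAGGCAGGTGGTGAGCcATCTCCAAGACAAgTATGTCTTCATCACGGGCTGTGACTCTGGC
Rdh16: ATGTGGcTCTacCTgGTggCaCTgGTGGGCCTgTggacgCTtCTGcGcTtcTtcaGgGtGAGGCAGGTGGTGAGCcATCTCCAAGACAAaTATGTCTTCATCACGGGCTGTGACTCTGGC
Rdh9: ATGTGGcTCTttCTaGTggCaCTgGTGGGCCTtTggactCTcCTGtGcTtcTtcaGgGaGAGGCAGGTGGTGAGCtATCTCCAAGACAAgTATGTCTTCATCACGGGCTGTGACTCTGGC
Rdh7: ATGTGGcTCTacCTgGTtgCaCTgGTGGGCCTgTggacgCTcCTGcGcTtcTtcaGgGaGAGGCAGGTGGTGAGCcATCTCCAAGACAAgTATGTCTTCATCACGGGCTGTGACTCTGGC
Of these 120 positions 94 were identical in all 4 genes, and over 951 aligned coding positions 63.7% were. Rdh16 and Rdh9 were the most alike pair of the cluster's members shown, with 96.3% identical coding bases. Rdh16 shared 86.0% with Rdh7 and 68.7% with Hsd17b6, and Hsd17b6 shared 70.1% with Rdh7. Outside the cluster, Hsd17b6 shared 44.1% with Rdh10, 44.6% with Rdh11 and 44.6% with Dhrs3 over the positions that aligned. This likeness bears on the counts, since reads were 150 bases long. Of the 150-base windows of the longest coding transcript, 7.21% in Hsd17b6, 2.62% in Rdh16 and 0.981% in Rdh7 also occur exactly in transcripts of another gene. Those genes were Rdh1 and Rdh16f1 for Hsd17b6, Rdh9 and Rdh16f1 for Rdh16, and Rdh18-ps for Rdh7. For the other 6 genes the share was 0. Exons outside these transcripts were not searched, and the exons of Rdh16 share 381 bases with Rdh18-ps on the same strand. How reads with several placements were counted is not given in the sources used here, and the levels of the cluster genes carry that uncertainty.

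Hsd17b6 and Rdh16 were lower in mutant liver, and these were the only members that passed the threshold used over all genes, a Benjamini-Hochberg adjusted p below 0.05 in edgeR's quasi-likelihood test. The background share of tested genes called lower was 0.0614% (9 of 14657), and of genes called in either direction 0.341%, and since both genes were chosen with this comparison known nothing is read from the count of 2 in 9. The groups did not overlap for 6 of the 9 genes, 5 of them lower and 1 higher in mutant liver. Over all tested genes the share was 34.1%, with 17.0% lower and 17.0% higher. Like the median that follows, these counts are a description only, since the set was drawn up with this comparison known. The median log2 fold change of the 9 genes was −0.09, with 7 negative and 2 positive, beside a median of −0.0013 over all tested genes, of which 50.3% were negative.

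Hsd17b6 (ENSMUSG00000025396, mm10 chromosome 10, 127990936 to 128007611, minus strand) encodes a microsomal hydroxysteroid dehydrogenase that oxidises androgen metabolites and is related to the retinol dehydrogenases. It was at 83.6 and 76.4 CPM in the wild type libraries and at 39.9 and 45.4 CPM in the mutant libraries. Both mutant libraries lay far below both wild type libraries, and the replicates of a group differed by 1.09-fold and 1.14-fold. The group means were 79.98 ± 5.07 and 42.6 ± 3.93 CPM (SD, n = 2), a level 1.88-fold lower in mutant liver (log2 fold change −0.91, SE 0.10).

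Rdh16 (ENSMUSG00000069456, mm10 chromosome 10, 127801152 to 127846565, plus strand) encodes a microsomal retinol dehydrogenase of liver. It was at 74.3 and 70.7 CPM in wild type and at 51.9 and 49.9 CPM in mutant liver. Here too both mutant libraries were below both wild type libraries, and replicates differed by 1.05-fold and 1.04-fold. The level was 1.43-fold lower in mutant liver (log2 fold change −0.51, SE 0.09). Its exons share 381 bases with the pseudogene Rdh18-ps on the same strand, which held 12 to 35 reads in a library (0.126 to 0.422 CPM, log2 fold change −1.11, SE 0.65).

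Rdh7 (ENSMUSG00000040134, mm10 chromosome 10, 127884028 to 127888817, minus strand), a retinol and sterol dehydrogenase of mouse liver, was the most abundant gene of the cluster. It was at 1042 and 1000.2 CPM in wild type and at 972.5 and 951.1 CPM in mutant liver. The mutant libraries were just below the wild type libraries, and the log2 fold change of −0.09 was smaller than its SE of 0.10. Hsd17b6 and Rdh16 were also set against Rdh7 of the same library, per kilobase of all annotated exons of a gene merged. Hsd17b6 stood at 8.55% and 8.14% in wild type and at 4.37% and 5.09% in mutant liver. Rdh16 stood at 1.93% and 1.91% in wild type and at 1.44% and 1.42% in mutant liver. The size of the Rdh16 percentages depends on the exon length taken, 6217 bases here against 3207 in its longest coding transcript. In both ratios the groups did not overlap. Hsd17b6 and Rdh16 were chosen with this comparison known, so the ratios are a description and not a second check. With 2 libraries against 2, an exact two-sided permutation test cannot give a p below 0.333.

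**Figure D1:**
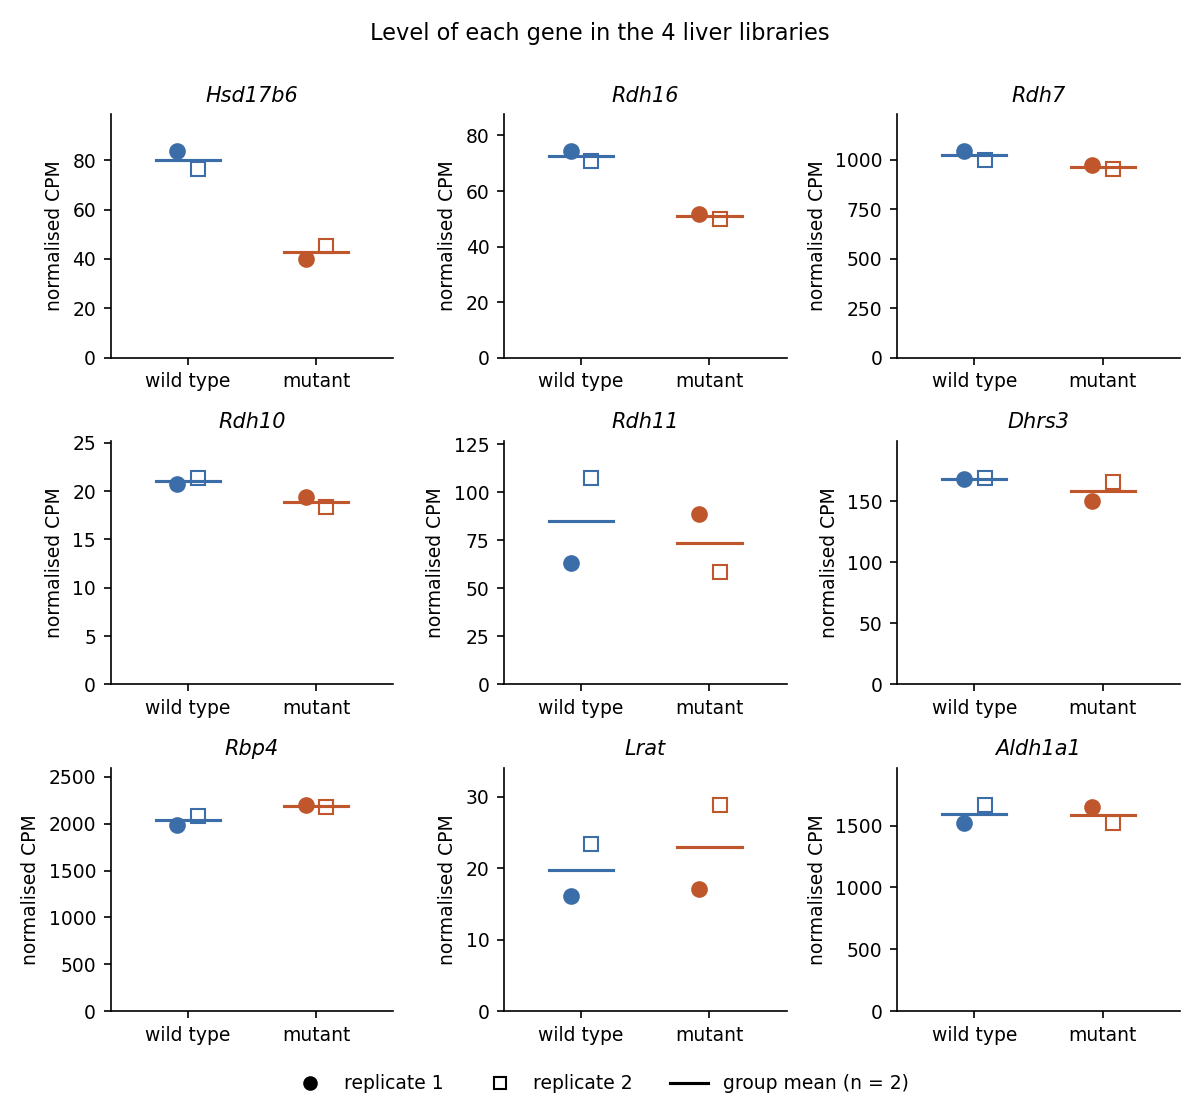
Normalised CPM of each of the 9 genes in the 4 liver libraries, on axes that start at 0, with filled circles for replicate 1, open squares for replicate 2 and lines for group means (n = 2). Hsd17b6 lies at 76.4 to 83.6 CPM in wild type and at 39.9 to 45.4 CPM in mutant liver, whereas Rdh11, Lrat and Aldh1a1 overlap between the groups.

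The cluster spans 248 kb from Rdh1 to Hsd17b6, and its 9 annotated genes in the files include 8 that were tested. The gene starts of Rdh16 and Hsd17b6 lie 206 kb apart, with other genes of the cluster between them, among them Rdh7. Rdh16f2, a close relative of Rdh16, was at 64.4 and 91.8 CPM in wild type and at 78.4 and 88.6 CPM in mutant liver, with overlapping groups (log2 fold change 0.10, SE 0.18). Rdh9, the gene most like Rdh16, was at 44.9 and 39.4 CPM in wild type and at 34.5 and 41.2 CPM in mutant liver, also with overlap (−0.15, SE 0.11). Of its 3590 exon bases 2302 are shared with Rdh16f1 on the same strand. Rdh16f1 is not among the gene rows of the count files, and its part in the Rdh9 values was not tested. Sdr9c7, a more distant short-chain dehydrogenase, was at 119.8 ± 1.68 and 109.8 ± 7.20 CPM (−0.13, SE 0.09). Both of its mutant libraries were below both wild type libraries. The remaining cluster genes were scarce: Rdh1 was at 0.126 to 0.299 CPM, and Rdh19 had 0 to 2 reads in a library, under the 3 counts taken as the floor. Apart from the members Hsd17b6, Rdh16 and Rdh7, the cluster genes tested had edgeR adjusted p of 0.946 or more. Whether their changes differ from those of Hsd17b6 and Rdh16 was not tested. The flanking genes were Gpr182 and Zbtb39 beyond Rdh1 and Prim1 and Naca beyond Hsd17b6. Their log2 fold changes were −0.03, 0.12, −0.31 and 0.06, with edgeR adjusted p of 0.991 or more. The groups also did not overlap for Rdh18-ps and Prim1, both lower in mutant liver. Over all tested genes, 34.1% did not overlap in either direction.

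**Figure D2:**
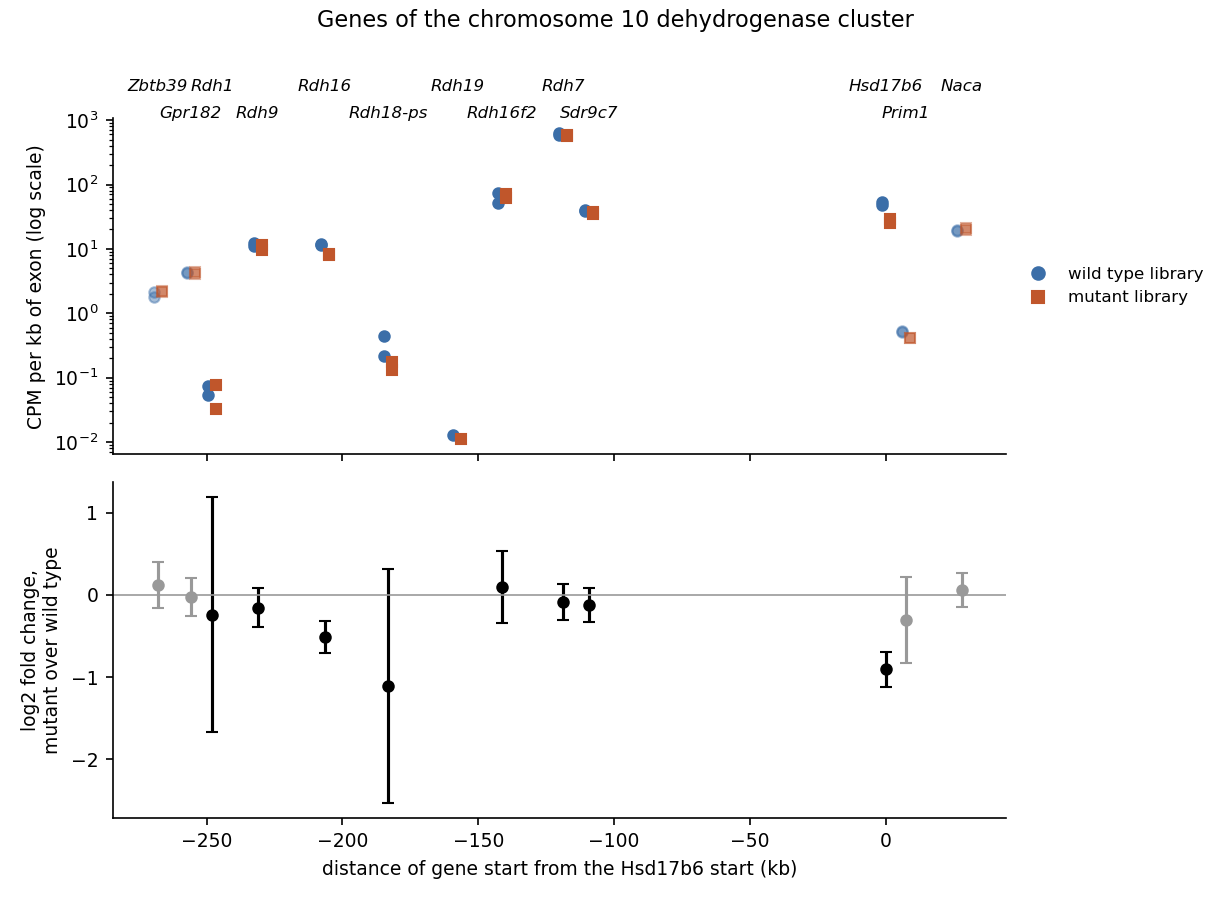
Levels (top, CPM per kb of exon, log axis, 1 point per library) and log2 fold changes with 95% confidence intervals (bottom) of the cluster genes by distance of the gene start from that of Hsd17b6, with 2 flanking genes on each side in paler tones. Rdh7 stands highest at 567 to 621 CPM per kb. The intervals of Hsd17b6 (−1.12 to −0.69) and Rdh16 (−0.70 to −0.32) are a description, since both genes were chosen with this comparison known. Libraries at 0 cannot be drawn on the log axis.

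The promoters of Hsd17b6 and Rdh16, which were both lower, and of Rdh7, which lies between them, are shown from 250 bases before to 50 bases after the RefSeq gene start (GRCm38.p6, the mm10 build), read 5′ to 3′ on the gene's strand. They are chr10:128007562-128007861 on the minus strand for Hsd17b6, chr10:127800903-127801202 on the plus strand for Rdh16 and chr10:127888684-127888983 on the minus strand for Rdh7. Capitals mark matches to any of 4 motifs searched on both strands.
Hsd17b6: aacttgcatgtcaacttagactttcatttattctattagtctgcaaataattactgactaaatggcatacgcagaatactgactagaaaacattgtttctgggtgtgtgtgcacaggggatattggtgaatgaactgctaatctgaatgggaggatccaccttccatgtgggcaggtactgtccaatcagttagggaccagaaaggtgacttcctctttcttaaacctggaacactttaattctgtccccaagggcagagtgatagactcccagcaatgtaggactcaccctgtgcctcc
Rdh16: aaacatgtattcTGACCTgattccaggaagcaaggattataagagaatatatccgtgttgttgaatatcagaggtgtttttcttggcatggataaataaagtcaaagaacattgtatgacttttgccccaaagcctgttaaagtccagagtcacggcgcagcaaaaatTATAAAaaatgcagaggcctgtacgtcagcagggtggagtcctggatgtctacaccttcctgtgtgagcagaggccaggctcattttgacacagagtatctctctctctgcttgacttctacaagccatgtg
Rdh7: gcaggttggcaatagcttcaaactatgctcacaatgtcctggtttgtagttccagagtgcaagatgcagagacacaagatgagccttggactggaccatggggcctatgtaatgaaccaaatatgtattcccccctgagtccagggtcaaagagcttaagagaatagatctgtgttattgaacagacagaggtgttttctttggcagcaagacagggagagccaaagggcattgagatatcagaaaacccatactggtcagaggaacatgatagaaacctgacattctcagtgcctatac
The motifs were GTAAACA (a forkhead FOXO site), CAAAACA (an insulin response element core), AGGTCA (the nuclear receptor core site) and TATAAA (the core promoter element bound by TBP). They occur in 3.65%, 6.28%, 16.3% and 13.6% of the 32851 RefSeq promoters of the same length. Rdh16 had AGGTCA on the reverse strand, where its letters read TGACCT from base −238, and TATAAA from base −82. In the windows of Hsd17b6 and Rdh7 none of the 4 motifs was found. A RefSeq promoter was matched for 8 of the 9 genes. Among the other 5 of these, Rbp4 had GTAAACA from base −241, and the windows of Rdh11, Dhrs3, Lrat and Aldh1a1 held none of the 4. A match is a run of letters and not a shown binding site, and no match says only that these letters are not in this window.

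Outside the cluster, the set held 1 further retinol dehydrogenase and 2 retinal reductases. Rdh10 (mm10 chromosome 1, 16105774 to 16133734), which oxidises retinol to retinal, was at 20.8 and 21.3 CPM in wild type and at 19.4 and 18.4 CPM in mutant liver. The groups did not overlap (log2 fold change −0.16, SE 0.10). Dhrs3 (chromosome 4, 144892827 to 144928209), a reductase that turns retinal back into retinol and is induced by retinoic acid, was at 168.1 and 169.0 CPM in wild type and at 150.6 and 165.9 CPM in mutant liver. Mutant replicate 2 was close to both wild type libraries and mutant replicate 1 somewhat lower, for a log2 fold change of −0.09 (SE 0.10). Rdh11 (chromosome 12, 79174337 to 79192293), which reduces retinal with NADPH, was at 62.97 and 107.3 CPM in wild type and at 88.5 and 58.7 CPM in mutant liver. Its wild type libraries differed by 1.70-fold and its mutant libraries by 1.51-fold, both above the 95th percentile over 6928 genes with a mean of at least 10 CPM (1.29-fold and 1.31-fold). Its log2 fold change was −0.21 (SE 0.44), and the 95% confidence interval ran from −1.85 to 1.43.

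The genes of retinoid transport, storage and oxidation differed little between the groups or varied as much within them. Rbp4 (chromosome 19, 38116629 to 38125281) was at 1989 and 2083 CPM in wild type and at 2199 and 2182 CPM in mutant liver, the only member with both mutant libraries above both wild type libraries. Its log2 fold change was 0.11 (SE 0.10). Aldh1a1 (chromosome 19, 20492715 to 20643465), the only retinal dehydrogenase among the 9 genes, was at 1523.5 and 1666 CPM in wild type and at 1647.5 and 1524 CPM in mutant liver. The groups overlapped almost fully, and the 95% confidence interval of its log2 fold change was −0.24 to 0.22. Lrat (chromosome 3, 82892579 to 82903973) was at 16.1 and 23.4 CPM in wild type and at 17.1 and 28.8 CPM in mutant liver. Replicates differed by 1.45-fold and 1.69-fold, so the log2 fold change of 0.22 (SE 0.40) was within their spread. Lrat marks stellate cells, and in bulk tissue fewer cells of a type and less RNA per cell cannot be told apart. The 14 other stellate markers were all detected, and 3 of the 14 were higher and 11 lower in mutant liver by the sign of the log2 fold change. Their summed level was 403.9 and 438.1 CPM in wild type and at 408.8 and 381.4 CPM in mutant liver, and their part in the Lrat values was not tested.

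Per kilobase of exon the wild type levels fell in the order Rbp4 (1516 ± 49.0 CPM per kb), Rdh7 (608 ± 17.4), Aldh1a1 (323 ± 20.5), Dhrs3 (57.6 ± 0.209), Hsd17b6 (50.8 ± 3.22), Rdh11 (24.6 ± 9.07), Rdh16 (11.7 ± 0.406), Rdh10 (5.06 ± 0.0959) and Lrat (3.69 ± 0.965; SD, n = 2). The length used was that of all annotated exons of a gene merged, 4937 bases for Aldh1a1 and 6217 for Rdh16. Their longest coding transcripts have 2358 and 3207 bases, so the order depends on the length taken. With the merged lengths, no neighbours in that order overlapped in wild type liver. The order of the means was the same in mutant liver, but Hsd17b6 (25.3 and 28.8 CPM per kb) then overlapped Rdh11 (25.6 and 17.0), and Rdh10 (4.66 and 4.42) overlapped Lrat (3.19 and 5.39).

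**Figure D3:**
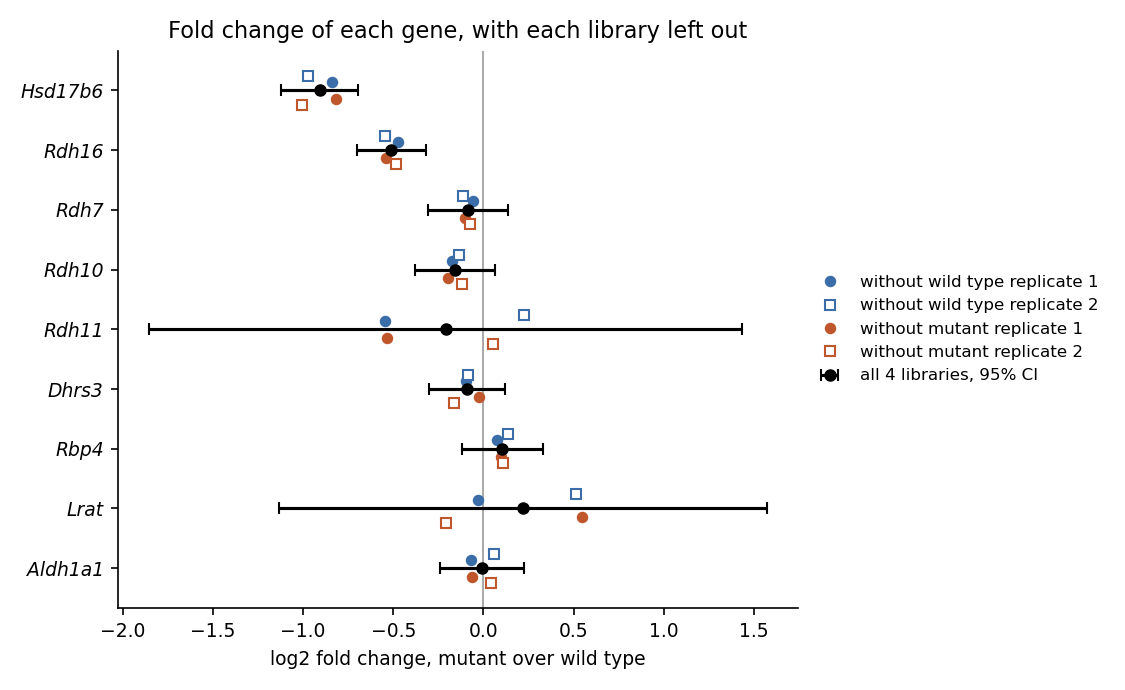
Log2 fold changes of the 9 genes with all 4 libraries (black, 95% confidence interval) and with each library left out in turn (coloured symbols). Hsd17b6 stays between −1.01 and −0.82 and Rdh16 between −0.55 and −0.47, whereas Rdh11, Lrat and Aldh1a1 fall on both sides of 0.

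The call of Hsd17b6 was lost without wild type replicate 1 (log2 fold change −0.84) and without mutant replicate 1 (−0.82), and that of Rdh16 in all 4 fits that left out a library. Rdh16 also missed the threshold with limma-voom, without robust estimation and when genes had to reach 1 CPM in 2 libraries. Macrophage markers moved with the groups: 13 of 13 had a positive log2 fold change, 6 passed the threshold in edgeR, 11 in DESeq2 and 1 in limma-voom, and none was at 0. Over all tested genes the shares called were 0.341%, 0.764% and 0.0478%, and 50.3% of log2 fold changes were negative. Their summed level was 399.9 and 441.3 CPM in wild type and at 621.0 and 697.7 CPM in mutant liver, and their part in the lower Hsd17b6 and Rdh16 values was not tested.

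Other cell types and the zones of the liver lobule were read from further lists, beside a share of 6.19% of all tested genes with an unadjusted p below 0.05. Of 10 sinusoidal endothelial markers 0 passed the threshold with any of edgeR, DESeq2 and limma-voom and 0 had an unadjusted p below 0.05, and the same held for the 9 hepatocyte markers and for 5 tested cholangiocyte markers. Their median log2 fold changes were −0.02, 0.07 and −0.06. Of 14 stellate markers 0 passed with any of the 3 tools, and 2 had an unadjusted p below 0.05. Of 12 periportal genes 0 passed with any of the 3 tools, with 2 under an unadjusted p of 0.05 and a median log2 fold change of −0.01. Of 11 pericentral genes 0 passed in the 3 tools and 0 had an unadjusted p below 0.05, with a median of 0.04. The log2 fold changes ranged from −0.20 to 0.26 in the periportal and from −0.27 to 0.14 in the pericentral list.

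The other genes of the pathway were taken from 8 lists with 90 genes in the files, of which 76 were tested. In edgeR 0 passed the threshold in either direction, limma-voom called 0 and DESeq2 called 1. The shares over all tested genes were 0.341%, 0.0478% and 0.764%. At an unadjusted p below 0.05 there were 7, where the share over all tested genes was 6.19%. The median log2 fold change of the 76 was −0.04, with 32 positive and 44 negative. With a library left out it lay between −0.0702 and 0.0142, and the medians of all 8 lists changed sign or moved by over 1.5 times in at least 1 such fit.

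Among relatives of the retinol dehydrogenases, 15 tested, 5 were positive and 10 negative, with a median of −0.05, 0 past the threshold in the 3 tools and 2 at an unadjusted p below 0.05. Adh1, the abundant alcohol dehydrogenase that also oxidises retinol, was at 1293 ± 162 CPM in wild type and at 1319 ± 27.7 CPM in mutant liver, and Adh5 at 320.8 ± 22.8 and 308.2 ± 18.5 CPM. The 2 with an unadjusted p below 0.05, named after their values were seen, were Dhrs9 (log2 fold change 0.68, SE 0.22, edgeR adjusted p = 0.460) and Adh7 (0.32, SE 0.13, edgeR adjusted p = 0.728). Exons of Adh1 and Adh7 overlap those of Gm16559 and 0610031O16Rik on the opposite strand.

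The list of retinal oxidation and retinoic acid breakdown had 9 tested genes and a median of −0.0023, with 1 at an unadjusted p below 0.05 and 0 past the threshold in the 3 tools. Aldh8a1, a retinal dehydrogenase relative, was at 350.1 ± 16.7 and 350.8 ± 11.1 CPM, and the aldehyde oxidase Aox3 at 873.0 ± 217 and 966.2 ± 112 CPM. Aldh1a7, whose coding sequence is 91.6% identical to that of Aldh1a1, was named after its values were seen. It was at 213.0 ± 18.3 CPM in wild type and at 178.9 ± 17.7 CPM in mutant liver (−0.25, SE 0.11, adjusted p = 0.767 in edgeR). Of 150-base windows of Aldh1a1, 0 occur exactly in transcripts of another gene.

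Among 5 tested genes of retinoid binding and uptake, 1 was positive and 4 negative, the median was −0.13, and 0 passed the threshold in the 3 tools or had an unadjusted p below 0.05. Ttr, the partner of Rbp4 in plasma, was at 5988 ± 719 and 5453 ± 319 CPM, and Stra6l, a hepatic receptor for Rbp4, at 224.1 ± 12.9 and 218.0 ± 10.3 CPM. Of 6 further genes under the filter, Rbp2, Crabp1 and Crabp2 had 0 reads in all 4 libraries. Ester and carotenoid genes had a median of −0.11 over 8 tested genes, with 2 at an unadjusted p below 0.05, 0 past the threshold in edgeR or limma-voom and 1 in DESeq2. Ces1d, a carboxylesterase, was at 537.3 ± 115 and 447.2 ± 18.8 CPM, and the triglyceride lipase Pnpla2 at 61.95 ± 7.11 and 52.5 ± 3.95 CPM, a log2 fold change of −0.24 with an adjusted p of 0.764 in edgeR. The gene that DESeq2 called was lipoprotein lipase, Lpl, named after its values were seen, at 21.9 and 21.4 CPM in wild type and at 28.8 and 41.9 CPM in mutant liver (adjusted p = 0.337 in edgeR).

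Retinoid receptors, 6 tested, had a median of −0.0047 with 3 positive and 3 negative, and 0 passed the threshold in the 3 tools or had an unadjusted p below 0.05. Rxra, the main retinoid X receptor of hepatocytes, was at 353.6 ± 4.02 and 343.6 ± 65.8 CPM, and Rxrb at 20.0 ± 1.97 and 20.5 ± 3.21 CPM. Steroid dehydrogenases and reductases had a median of −0.07 over 19 tested genes, 7 positive and 12 negative, with 0 past the threshold in the 3 tools and 1 at an unadjusted p below 0.05. That gene, named after its values were seen, was Hsd17b2, which inactivates sex steroids. It was at 130.2 and 111.9 CPM in wild type and at 99.4 and 98.5 CPM in mutant liver (−0.29, SE 0.10, adjusted p = 0.525 in edgeR). Akr1c6 and Akr1c14, hydroxysteroid dehydrogenases of the aldo-keto reductase family, had 1003.6 ± 53.3 and 558.7 ± 45.7 CPM in wild type against 1058.3 ± 2.85 and 602.0 ± 21.6 CPM in mutant liver. Androgen receptor and steroid conjugation genes had a median of 0.28 over 9 tested genes, 6 positive and 3 negative, with a range from −0.43 to 0.76. In the 3 tools 0 passed the threshold. At an unadjusted p below 0.05 there was 1, Esr1 (0.29, SE 0.12, named after its values were seen). Cyp3a11 and Cyp2d9, the most abundant of that list, had 3796 ± 183 and 1515 ± 95.8 CPM in wild type and at 3342 ± 467 and 1391 ± 150 CPM in mutant liver, and both belong to families of close paralogs.

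**Figure D4:**
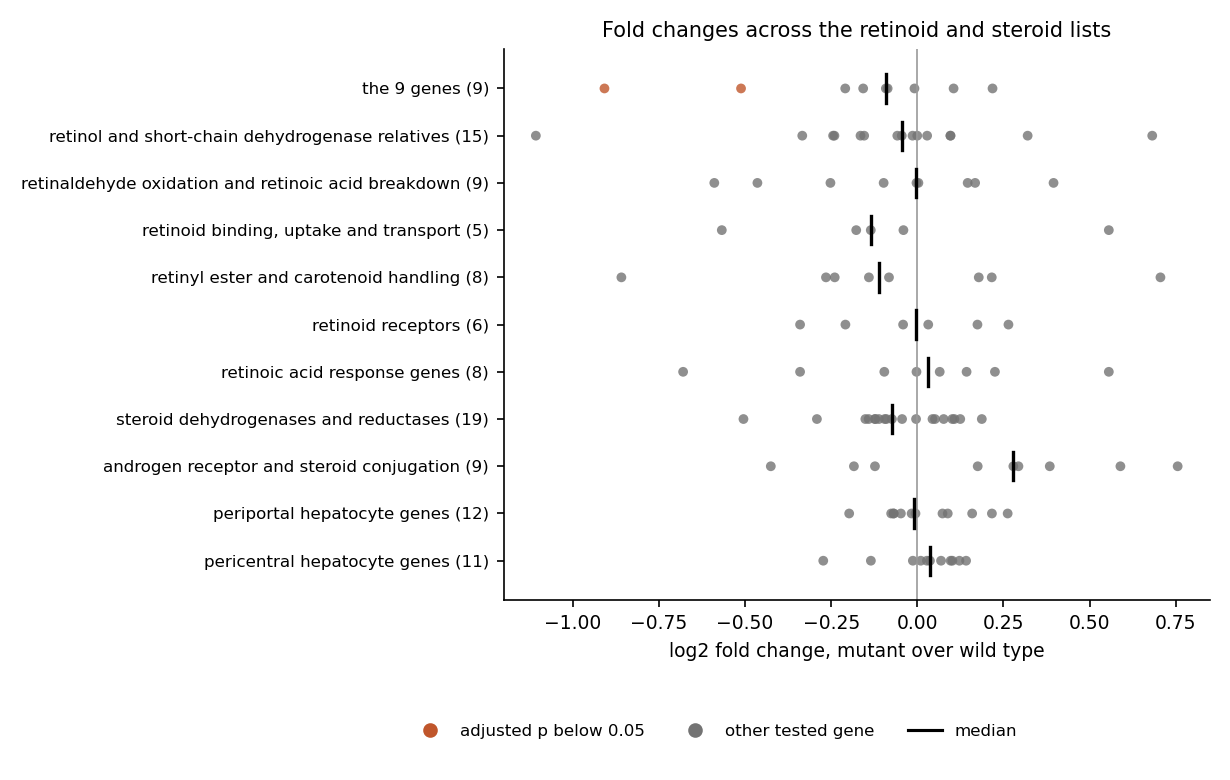
Log2 fold changes, mutant over wild type, of the 9 genes and of every tested gene of the pathway and zonation lists (number tested in brackets), with medians as bars. Hsd17b6 (−0.91) and Rdh16 (−0.51) are the only coloured points, which mark an adjusted p below 0.05, and list medians run from −0.13 to 0.28.

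Retinoic acid response genes had a median of 0.03 over 8 tested genes, 4 positive and 4 negative, with 0 past the threshold in the 3 tools and 0 at an unadjusted p below 0.05. Tgm2, a transglutaminase induced by retinoic acid, was at 62.8 ± 1.21 and 58.8 ± 4.37 CPM, and its exons overlap Rprd1b and Gm20412 on the opposite strand. Cyp26a1, the main hepatic retinoic acid hydroxylase and itself a retinoic acid target, was at 29.7 and 20.0 CPM in wild type but at 3.004 and 46.9 CPM in mutant liver. The mutant libraries lay on either side of the wild type libraries and differed by 15.6-fold, the largest difference between mutant replicates among 6928 genes with a mean of at least 10 CPM. Its relative Cyp26b1, named after its values were seen like Cyp26c1 and Rarb, was at 7.26 and 18.7 CPM in wild type and at 1.75 and 15.6 CPM in mutant liver. That difference of 8.88-fold between mutant replicates ranked 4 among the same genes. Cyp26c1 (0.0525 and 0.681 CPM) and the receptor Rarb (1.94 and 4.28 CPM) were also lower in mutant replicate 1 than in mutant replicate 2, and Rarb overlaps Top2b on the opposite strand. Of the members, Dhrs3 was 1.10-fold and Lrat 1.69-fold higher in mutant replicate 2. Cyp26a1, Cyp26b1, Cyp26c1, Rarb and Dhrs3 each had their lowest level in mutant replicate 1, as did 25.2% of all tested genes, whereas Lrat was lowest in wild type replicate 1.

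**Figure D5:**
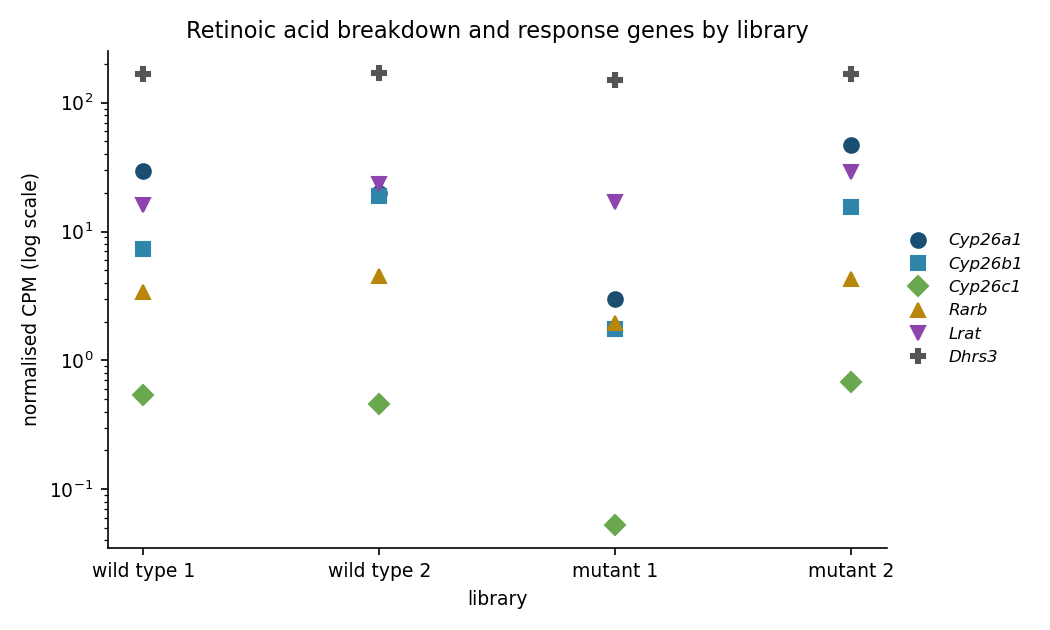
Normalised CPM (log axis) of genes of retinoic acid breakdown and response in each of the 4 libraries, 1 symbol per gene. Cyp26a1 and Cyp26b1 stand at 3.004 and 1.75 CPM in mutant replicate 1 and at 46.9 and 15.6 CPM in mutant replicate 2.

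The genes whose pattern over the 4 libraries was nearest to that of Hsd17b6, by Euclidean distance of log2 CPM centred on the gene's mean and among 8946 genes, were Nr1d1 (distance 0.19), Hectd2os (0.30) and Slc25a34 (0.31). Nr1d1, a circadian repressor also known as Rev-erb alpha, was at 56.9 and 44.9 CPM in wild type and at 27.6 and 28.7 CPM in mutant liver, so that its groups, like those of Hsd17b6, did not overlap. Nearest to Rdh16 were Slc25a47 (0.05), Ces2e (0.07) and Cep89 (0.10). Ces2e, a carboxylesterase, was at 181.1 and 173.8 CPM in wild type and at 124.8 and 127.5 CPM in mutant liver, again without overlap. The genes named here were selected for this likeness, and their values are a description. Exons of Nr1d1 and Hectd2os overlap those of Thra and Hectd2 on the opposite strand, and 5 bases of Slc25a47 overlap Mir345.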

How the data were processed

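RNA was measured in 4 liver libraries, 2 wild type and 2 mutant. Per the labels' protocols, TRIzol was used to extract the RNA and Dynabeads to isolate mRNA, and libraries were made with a TruSeq RNA kit that does not mark strand and sequenced as paired reads of 150 bases. Each library has 1 deposited file of raw, whole-number counts by Ensembl gene identifier, and TopHat2 2.1.1, HTSeq 0.6.0 and mm10 are named in the submitters' processing notes. How multiply placed reads and strand were handled in counting, and with which annotation, is not given in the sources used here.

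Symbols were found for 35449 of 37315 identifiers. Coordinates, exon lengths (all annotated exons of a gene merged) and overlaps come from GENCODE M21 (GRCm38, mm10). Genes were kept by filterByExpr (minimum count 10), scaled by TMM (factors 0.983 to 1.02) and tested with glmQLFit and glmQLFTest of edgeR 4.0.16 (R 4.3.3, robust, group as the only term), with Benjamini-Hochberg adjustment over 14657 genes and a threshold of 0.05. The main edgeR fit was also run on simulated counts, and its outcome is not given here. The other tools and the fits with a library left out were not run on simulated counts. Each SE was derived by dividing the size of the log2 fold change by the square root of its F. In CPM, the floor of 3 counts was 0.0313 to 0.0408, a limit that covers counting error only. No 2 libraries had the same counts. The mean chi-square statistic per gene between 2 libraries was 61.7 to 106, taken as a distance without a p-value. Coding sequences were aligned in pairs with MAFFT 7.526.

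The 9 genes and all lists were chosen with earlier results of these data known. Lists are described by counts and medians. Named were the 9 genes, Foxo1 and the cluster genes with 2 flanking genes on each side. In pathway and zonation lists, genes past the threshold were named (up to 4), and in pathway lists the 2 of highest CPM. For Hsd17b6 and Rdh16, 3 nearest patterns each were named (average log2 CPM of at least 2, no predicted genes). No list gene of the pathway passed the threshold, and the further genes named in the text were chosen after their values were seen, as said beside them. Alternatives tried were scaling by RLE or upper quartile, no filter, 1 CPM in 2 libraries, DESeq2 1.42.0, limma-voom (limma 3.58.1), no robust estimation, a replicate block and each library left out.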

Additional observations from a re-analysis of the deposited data

How the results depend on the processing

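Over all genes, 50 passed the threshold, and 24 did with a filter of 1 CPM in 2 libraries, 258 with no filter, 112 with DESeq2, 7 with limma-voom, 8 without robust estimation and 3 to 17 with a library left out. Of the 9 genes 2 passed, and 1 did, Hsd17b6, with the 1 CPM filter, with limma-voom and without robust estimation, and 0 to 1 with a library left out. Of the pathway genes 0 passed, also in each fit with a library left out, and 1 did with DESeq2 and 5 with no filter. The differences between replicates 1 and 2 had a correlation of −0.0072 over genes between the groups. With 1 difference per group, that cannot tell whether same-numbered libraries were paired or shared a batch. The replicate block called 111 genes, 2 of the 9 genes and 4 pathway genes. Signs turned for values near 0: Aldh1a1 was at 0.00016 with no filter, and Cyp26a1 at 0.00077 with the 1 CPM filter, 0.0037 with DESeq2 and 0.0017 with no filter. Cyp26a1 was at −1.13 with limma-voom and −0.92 with the replicate block, against −0.0023. With a library left out, log2 fold changes ranged from −0.54 to 0.23 for Rdh11, −0.21 to 0.55 for Lrat, −0.0709 to 0.0579 for Aldh1a1, −0.0935 to 0.16 for Adh1, −0.13 to 0.0163 for Adh5, −0.0442 to 0.0527 for Aldh8a1, −0.0876 to 0.43 for Aox3, −0.10 to 0.0197 for Stra6l, −0.25 to 0.14 for Rxra, −0.14 to 0.18 for Rxrb, −3.05 to 0.91 for Cyp26a1, −0.98 to 0.26 for Rdh1, −0.14 to 0.37 for Rdh16f2 and −0.56 to 0.11 for Foxo1. Among values that kept their sign, the ranges were −0.29 to −0.0312 for Rdh9, −1.52 to −0.50 for Rdh18-ps, 0.34 to 0.96 for Dhrs9, 0.12 to 0.49 for Adh7, −0.36 to −0.16 for Aldh1a7, −0.35 to −0.12 for Pnpla2, −0.47 to −0.0272 for Ces1d, 0.41 to 0.95 for Lpl, −0.40 to −0.18 for Hsd17b2, 0.17 to 0.41 for Esr1, −0.25 to −0.0069 for Ttr, −0.18 to −0.0217 for Tgm2, −0.19 to −0.0622 for Sdr9c7 and −0.16 to −0.0233 for Dhrs3. List medians ranged from −0.10 to 0.0163 for retinol dehydrogenase relatives, −0.17 to 0.23 for retinal oxidation and retinoic acid breakdown, −0.11 to −0.0069 for binding and uptake, −0.20 to 0.0805 for esters and carotenoids, −0.20 to 0.14 for receptors, −0.0987 to 0.16 for retinoic acid response, −0.12 to −0.0186 for steroid dehydrogenases, 0.14 to 0.24 for androgen receptor and conjugation, and 0.50 to 0.79 for macrophage markers. The causes were not tested. Where 1 library was left in a group, its variation is taken from the other group's pair. With 2 libraries a group, the SE of log2 fold changes had a median of 0.15 over genes.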
